A study of Mus musculus with 14 samples.

Results

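The genes described here are 48 mouse genes that encode the machinery of repressive chromatin. They cover heterochromatin protein 1 (HP1) and the enzymes that methylate lysine 9 of histone H3, and the Polycomb complexes PRC1 and PRC2. They also cover the DNA methyltransferases with the methyl-CpG binding domain (MBD) family, the class I histone deacetylases, and Atrx, Daxx and Smchd1. The genes were listed by name and function, and all 48 were found among the 24421 genes counted by RNA-seq and in the gene annotation of GRCm38. Sorted photoreceptors of C57BL/6 mice 8 weeks old were profiled. Rods came from mice with the Nrl-eGFP transgene, in which the Nrl promoter drives GFP, and Nrl-/- photoreceptors came from mice with the same transgene that lack Nrl, the transcription factor that commits photoreceptors to the rod fate. Those mutant cells take on a cone-like state dominated by the short-wavelength opsin, and the labels call them blue cones. Green cones came from mice with the transgene Opn1mw-GFP, sorted either a single time or again. RNA-seq covered 3 libraries each of rods and Nrl-/- photoreceptors, and ATAC-seq, in which a transposase marks accessible DNA, covered 2 libraries each of rods, of Nrl-/- photoreceptors and of green cones from either sort. No RNA was measured in green cones. For the initial single-sorted green cone library the study's own sample sheet names the Nrl-/- line in place of the labelled one, and the single-sorted libraries entered no main test.

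HP1 proteins bind histone H3 methylated at lysine 9 and help to compact constitutive heterochromatin. PRC2 methylates lysine 27 of histone H3 through Ezh1 or Ezh2, PRC1 ubiquitinates histone H2A through Ring1 or Rnf2, and CBX and Polyhomeotic subunits let PRC1 bind its targets and cluster them. In most mammalian cells heterochromatin lines the nuclear envelope, whereas the nuclei of mouse rods gather it in their centre and those of cones keep a more usual layout. How the silencing machinery is expressed in these cell types is the question the comparisons below address.

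The libraries held 18376770 to 26312895 assigned RNA reads and 1062403 to 5770075 ATAC-seq reads in elements, with the double-sorted green cones at the low end. Nrl, the targeted gene, was at 599, 845 and 745 CPM (read counts scaled to library size by TMM) in rods and at 34.5, 39.3 and 24.6 CPM in Nrl-/- photoreceptors. The 6 rod markers were all higher in rods and the 6 cone markers all higher in Nrl-/- photoreceptors, as the labels state. Markers of other cells differed between the sorts too. The summed level of 6 bipolar markers was 76.1 to 99.1 CPM in rods, against 1364 to 1557 CPM in Nrl-/- photoreceptors, nearly all of it from Cabp5, and 8 Müller glia markers summed to 92.3 to 149 CPM in rods, against 716 to 879 CPM in Nrl-/- photoreceptors, mostly from Clu. The 6 microglia markers summed to 2.48 to 3.84 CPM and 16.5 to 39.2 CPM, 4 endothelial markers to 5.58 to 11.0 CPM and 0.395 to 1.80 CPM, and 6 amacrine markers to 108 to 128 CPM and 69.3 to 83.8 CPM, in the same order, and the 4 haemoglobin genes had no count. Nearly all of the amacrine sum came from Slc6a9, while Gad1, Gad2, Tfap2a and Tfap2b were at 0 to 0.60 CPM. Of defining markers, the glial genes Rlbp1 and Glul stood at 6.36 to 22.2 CPM with overlapping groups, the bipolar gene Grm6 at 2.08 to 8.83 CPM, also with overlap, and the bipolar gene Trpm1 was at most at 10.1 CPM in rods and at least at 11.0 CPM in Nrl-/- photoreceptors. The part of these cells in the results below was not tested. The counts are of bulk sorts, in which fewer cells with a transcript and less transcript per cell cannot be told apart.

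Of the 48 genes, 47 passed the filter on low counts. Of these, 7 differed by more than 2-fold between rods and Nrl-/- photoreceptors, in the sense that edgeR placed their log2 fold change beyond 1 at an adjusted p under 0.05. Suv39h2, Phc2, Dnmt3b, Phc3 and Jarid2 were higher in rods, and Cbx7 and Mbd3 were higher in Nrl-/- photoreceptors. The 7 genes are 14.9% of the 47, below the 20.1% of all 12327 tested genes that passed. By direction, 5 were higher in rods against a background of 6.88%, and 2 were higher in Nrl-/- photoreceptors against a background of 13.3%. When the same fit was read against no change, 28 genes passed, 19 higher in rods and 9 higher in Nrl-/- photoreceptors, which is 59.6% of the 47 and close to the 60.9% of all tested genes (29.5% higher in rods and 31.4% higher in Nrl-/- photoreceptors). For 33 genes, or 70.2%, no Nrl-/- library fell within the range of the rods or the reverse, against 67% of all genes. The median log2 fold change of the 47 was 0.22, that of all genes 0.01, and 36 of the 47 differed by less than 2-fold.

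**Figure D1:**
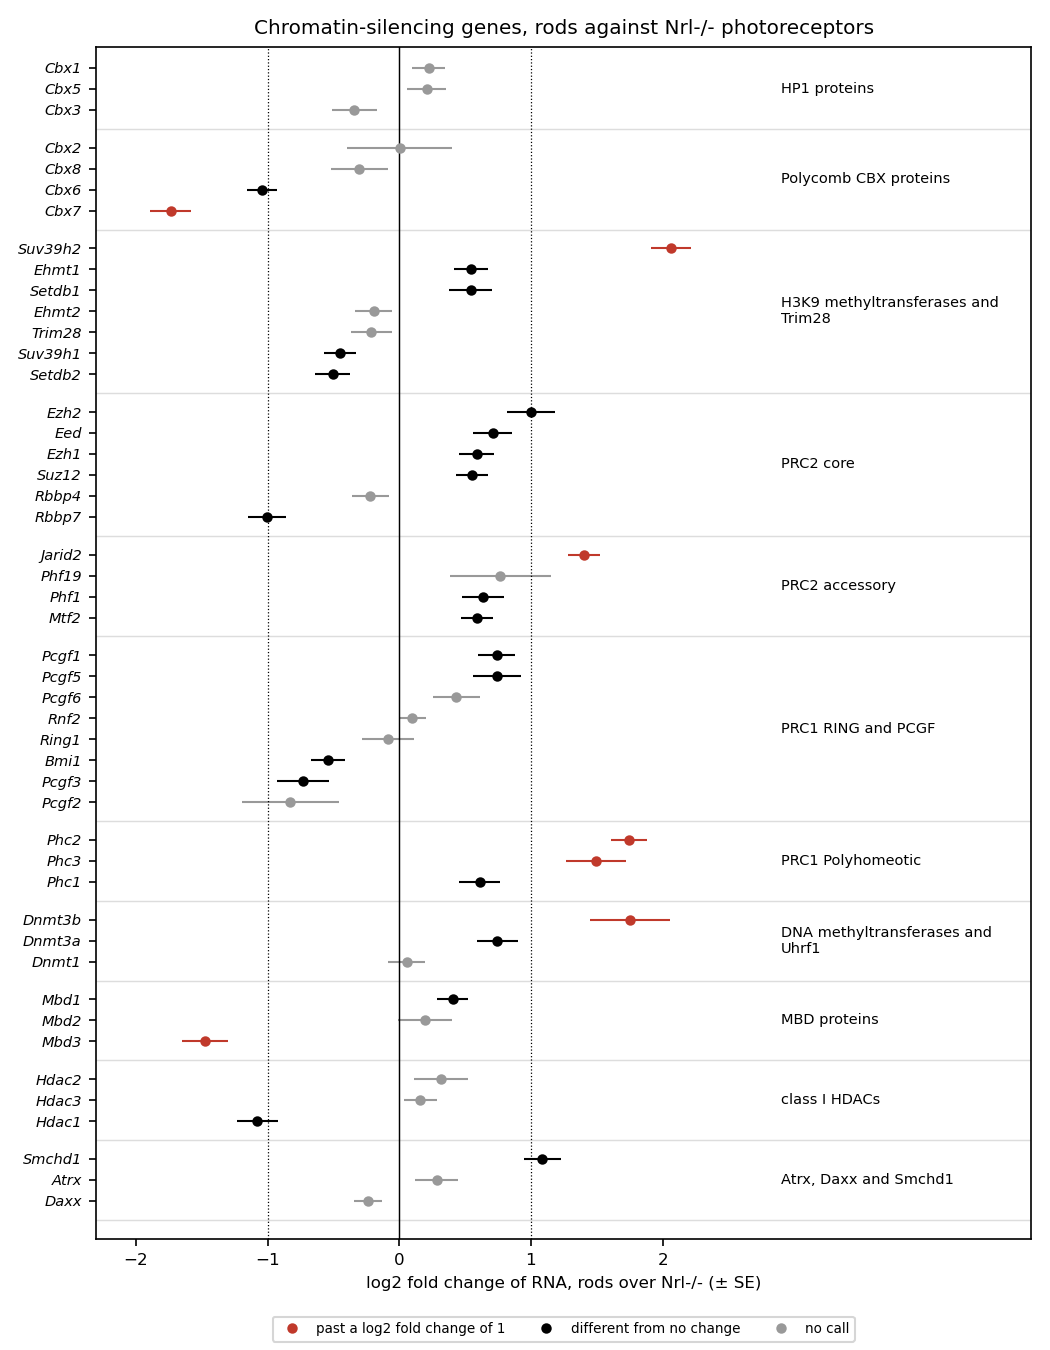
Log2 fold change of RNA in rods over Nrl-/- photoreceptors for the 47 tested genes, grouped by role (x axis, 3 libraries per group). Bars are SE derived from the F statistic of the fit. Red points are the 7 genes past a log2 fold change of 1 (dotted lines), black points the other genes that differed from no change, and grey points those that did not; all 3 Polyhomeotic genes and 4 of 6 PRC2 core genes lie to the right of 0.

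Among the enzymes that methylate lysine 9 of histone H3, Suv39h2 showed the largest difference of the whole list. Suv39h2, a methyltransferase of constitutive heterochromatin, was at 28.3, 27.7 and 26.9 CPM in the rod libraries and at 6.08, 6.52 and 7.19 CPM in Nrl-/- photoreceptors. The 2 sets of libraries lay far apart with little spread inside each, and Suv39h2 RNA was 4.19-fold higher in rods (log2 fold change 2.07, SE 0.15, adjusted p = 1.53e-05). The gene lies at chr2:3455815-3474986 on the minus strand and shares exonic sequence with Dclre1c on the opposite strand. The library kit is not known to keep strand, so reads in that overlap cannot be told apart. Dclre1c itself was at 13.0 to 14.4 CPM in rods, against 6.25 to 13.1 CPM in Nrl-/- photoreceptors, with overlapping libraries.

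Its paralog Suv39h1, which methylates the same residue, went the other way, from 56.7 to 66.9 CPM in rods to 77.3 to 91.9 CPM in Nrl-/- photoreceptors (log2 fold change -0.45, SE 0.12, adjusted p = 0.00644 against no change). Per length, Suv39h1 RNA was 2.67 to 3.0 times as abundant as Suv39h2 RNA in the rod libraries and 13.7 to 17.9 times as abundant in the Nrl-/- libraries. By this measure Suv39h1 was the more abundant of the pair in every library, and the ratio did not overlap between the groups. The length used for Suv39h2 includes the sequence shared with Dclre1c, so its level per length is uncertain. Setdb1, a methyltransferase recruited by Trim28, and Ehmt1, which with Ehmt2 places mono- and dimethylation on the same lysine, were higher in rods by log2 fold changes of 0.54 and 0.55 (adjusted p = 0.0125 and 0.00303), and Setdb2 was higher in Nrl-/- photoreceptors (-0.51, adjusted p = 0.00589). Setdb1 shares exonic sequence with Cers2 on the opposite strand, so reads in that overlap cannot be told apart either. Cers2 was also higher in rods, at 104 to 121 CPM, against 73.7 to 96.9 CPM in Nrl-/- photoreceptors. Setdb2 shares exonic sequence with Gm45935 on the same strand, with the same limit on reads in the overlap. Ehmt2 and the corepressor Trim28 did not pass, and the Ehmt2 libraries overlapped at 21.2 to 26.9 CPM in rods, against 26.3 to 29.9 CPM in Nrl-/- photoreceptors. In all, 3 genes of this group of 7 were higher in rods, 2 were higher in Nrl-/- photoreceptors and 2 did not pass. The shares over all tested genes were 29.5% higher in rods and 31.4% higher in Nrl-/- photoreceptors.

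The 3 HP1 genes did not pass either test. Cbx5, which encodes HP1-alpha, was at 91.1, 73.9 and 92.5 CPM in the rod libraries and at 90.2, 68.7 and 63.7 CPM in Nrl-/- photoreceptors, and the libraries overlapped (log2 fold change 0.21, SE 0.15, adjusted p = 0.241). With Nrl-/- replicate 1 left out its log2 fold change was 0.38 (adjusted p = 0.0162), and with the length correction described below it was -0.15. Cbx1 (HP1-beta) and Cbx3 (HP1-gamma) had log2 fold changes of 0.22 and -0.34, with adjusted p = 0.141 and 0.101, and an unadjusted p of 0.0997 and 0.0683. Cbx1 passed against no change with the length correction (log2 fold change 0.28, adjusted p = 0.0492), and Cbx3 passed with library totals alone as the scaling. Cbx3 has 6 annotated pseudogenes, to which part of its reads could map, so its level is uncertain.

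Of 6 PRC2 core genes, 4 were higher in rods against no change (Ezh1, Ezh2, Eed and Suz12), where 29.5% of all tested genes were, Rbbp7 was higher in Nrl-/- photoreceptors and Rbbp4 did not pass. Ezh2, the catalytic subunit best known from dividing cells, was at 19.4, 17.4 and 17.7 CPM in the rod libraries and at 11.2, 7.65 and 8.42 CPM in Nrl-/- photoreceptors. Every rod library was above every Nrl-/- library, and the log2 fold change was 1.00 (SE 0.18, adjusted p = 0.000521 against no change, 0.773 against a log2 fold change of 1). Ezh1, the catalytic subunit typical of non-dividing cells, was at 159, 146 and 146 CPM in the rod libraries and at 119, 94.0 and 87.5 CPM in Nrl-/- photoreceptors (log2 fold change 0.59, SE 0.13, adjusted p = 0.00207). Ezh1 RNA was the more abundant in both cell types: per length it was 5.2 to 5.32 times as abundant as that of Ezh2 in the rod libraries and 6.58 to 7.79 times as abundant in the Nrl-/- libraries. Of 6 markers of dividing cells, Mki67, Top2a, Ccnb1 and Cdk1 were at 0 to 0.41 CPM in all libraries, while Pcna, at 34.1 CPM or more, and Mcm2, at 14.6 to 21.5 CPM, were detected in every library, with overlapping groups.

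Eed, which binds the methylated product of PRC2, was at 46.3, 53.4 and 50.4 CPM in the rod libraries and at 24.6, 31.7 and 35.4 CPM in Nrl-/- photoreceptors (log2 fold change 0.71, SE 0.15, adjusted p = 0.00137). Suz12, the scaffold subunit, had a log2 fold change of 0.55 (adjusted p = 0.00186). The histone-binding pair Rbbp4 and Rbbp7, which PRC2 shares with deacetylase complexes, behaved differently. Rbbp7 was at 48.7, 64.6 and 57.2 CPM in the rod libraries and at 95.8, 117 and 130 CPM in Nrl-/- photoreceptors, without overlap (log2 fold change -1.0, SE 0.14, adjusted p = 9.24e-05 against no change). Rbbp4 was at 330 to 377 CPM in rods, against 335 to 479 CPM in Nrl-/- photoreceptors, with overlapping libraries (adjusted p = 0.191), and passed, higher in Nrl-/- photoreceptors, when Nrl-/- replicate 1 was left out (adjusted p = 0.0232). Rbbp4 and Rbbp7 share exonic sequence with Sync and Txlng, respectively, on the opposite strand, and reads in those overlaps cannot be told apart.

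Of 4 PRC2 accessory genes, 3 were higher in rods against no change, where 29.5% of all tested genes were, and 1 did not pass. Jarid2, which guides PRC2 to chromatin and stimulates it, was at 219, 246 and 266 CPM in the rod libraries and at 98.8, 93.0 and 85.2 CPM in Nrl-/- photoreceptors. Every rod library was far above the highest Nrl-/- library, and Jarid2 RNA was 2.64-fold higher in rods (log2 fold change 1.40, SE 0.12, adjusted p = 0.00375). The gene lies at chr13:44730774-44921643 on the plus strand. Mtf2 and Phf1, Tudor-domain proteins that bind PRC2, were higher in rods by log2 fold changes of 0.59 (SE 0.12, adjusted p = 0.00118) and 0.63 (SE 0.16, adjusted p = 0.0047). Mtf2 stood at 52.4 to 62.4 CPM in rods, against 35.1 to 39.3 CPM in Nrl-/- photoreceptors, and Phf1 at 14.1 to 15.8 and 9.32 to 10.6 CPM. Phf19, a relative of both, was near the limit of detection at 0.86 to 1.93 CPM and did not pass (adjusted p = 0.103), although its libraries did not overlap.

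**Figure D2:**
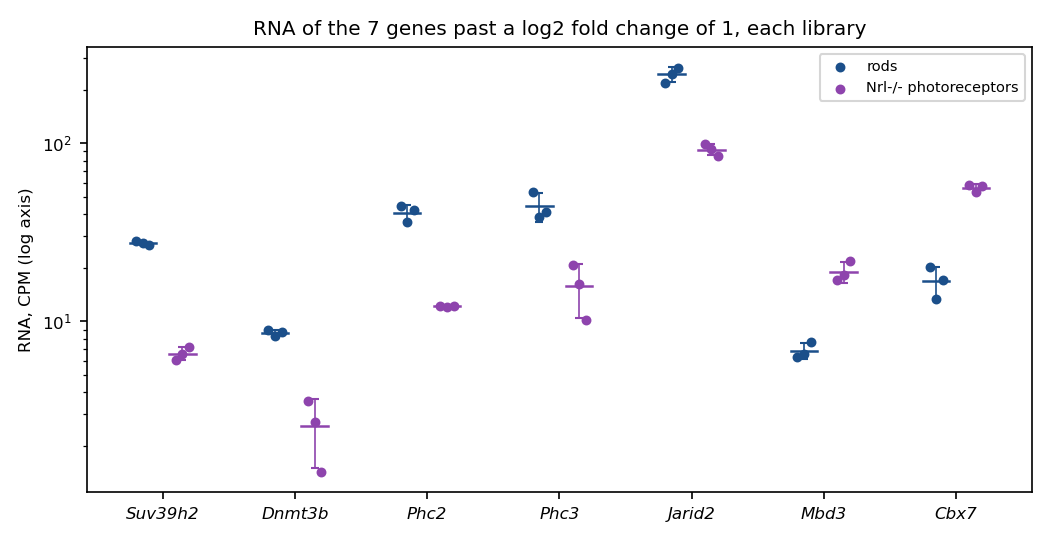
RNA of the 7 genes past a log2 fold change of 1 in each of 3 rod and 3 Nrl-/- libraries (y axis, CPM on a log scale, lines are means and bars SD). No gene has overlapping libraries; Phc3 and Dnmt3b have the widest spread, in Nrl-/- photoreceptors.

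All 3 Polyhomeotic genes, whose products polymerise and cluster PRC1, were higher in rods against no change, beside 29.5% of all tested genes. Phc2 was at 44.2, 36.3 and 42.1 CPM in the rod libraries and at 12.3, 12.1 and 12.2 CPM in Nrl-/- photoreceptors. The Nrl-/- libraries were almost equal and well below the rod libraries, and Phc2 RNA was 3.36-fold higher in rods (log2 fold change 1.75, SE 0.14, adjusted p = 0.000128). Phc3 was at 53.5, 38.5 and 41.1 CPM in the rod libraries and at 20.8, 16.2 and 10.2 CPM in Nrl-/- photoreceptors. Its libraries varied more than those of Phc1 and Phc2, and the call (log2 fold change 1.5, SE 0.23, adjusted p = 0.0326) was lost without rod replicate 1, without Nrl-/- replicate 2, without Nrl-/- replicate 3, with library totals as the scaling, with DESeq2 and with a correction for transcript length. The difference from no change stood in all 14 alternatives. Phc1 was at 47.9, 44.7 and 44.2 CPM in the rod libraries and at 34.4, 32.1 and 23.2 CPM in Nrl-/- photoreceptors, a smaller difference without overlap (log2 fold change 0.61, SE 0.15, adjusted p = 0.00443 against no change). Phc2 lies at chr4:128654655-128752881 on the plus strand and Phc3 at chr3:30899295-30969479 on the minus strand.

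Of the 4 CBX subunits of PRC1, which read methylated lysine 27 of histone H3, 2 were higher in Nrl-/- photoreceptors, none was higher in rods and 2 did not pass. Against no change, 31.4% of all tested genes were higher in Nrl-/- photoreceptors and 29.5% higher in rods. Cbx7 was at 20.2, 13.4 and 17.0 CPM in the rod libraries and at 58.0, 53.0 and 57.5 CPM in Nrl-/- photoreceptors. The groups were widely separated, and Cbx7 RNA was 3.33-fold lower in rods (log2 fold change -1.74, SE 0.16, adjusted p = 0.000396). The gene lies at chr15:79915804-79971143 on the minus strand. Cbx6 was at 34.2, 37.1 and 40.1 CPM in the rod libraries and at 79.9, 77.0 and 72.6 CPM in Nrl-/- photoreceptors, again without overlap (log2 fold change -1.04, SE 0.12, adjusted p = 1.12e-05 against no change, 0.527 against a log2 fold change of 1). Cbx8 and Cbx2 did not pass: Cbx8, which passed when Nrl-/- replicate 1 was left out, was at 20.5 to 22.6 CPM in rods, against 19 to 37.3 CPM in Nrl-/- photoreceptors, and Cbx2 at 1.10 to 3.29 and 2.01 to 2.62 CPM. Cbx7 held rank 36 of 48 per length in rods and rank 10 in Nrl-/- photoreceptors, where it was level with Cbx8 (19.4 and 19.1 RPKM, read counts scaled to library size and exon length). In rods Cbx8 had the highest mean of the 4, at 15.5 RPKM against 6.81 RPKM for Cbx6 and 5.83 RPKM for Cbx7. Cbx6 shares exonic sequence with Npcd on the same strand, so reads in that overlap cannot be told apart. Npcd had no count in any library.

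The catalytic RING subunits of PRC1 did not pass the test, while the PCGF partners that define PRC1 variants went in both directions. Rnf2 was at 195 to 206 CPM in rods, against 178 to 193 CPM in Nrl-/- photoreceptors (log2 fold change 0.10, SE 0.10, adjusted p = 0.431), a small gap without overlap, and Ring1 at 7.85 to 9.31 and 7.50 to 10.2 CPM (adjusted p = 0.721). Per length, Rnf2 RNA was 11.9 times as abundant as Ring1 RNA in rods and 10.5 times in Nrl-/- photoreceptors. Pcgf1, the partner in the variant complex with Kdm2b, was at 37.8, 42.5 and 37.8 CPM in the rod libraries and at 20.5, 23.5 and 26.7 CPM in Nrl-/- photoreceptors (log2 fold change 0.74, SE 0.14, adjusted p = 0.000665). Pcgf5 was at 10.8, 11.0 and 9.63 CPM in the rod libraries and at 6.12, 6.63 and 6.03 CPM in Nrl-/- photoreceptors, also without overlap (log2 fold change 0.74, SE 0.18, adjusted p = 0.00394).

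Pcgf3, a close relative of Pcgf5, was at 4.86, 5.64 and 6.12 CPM in the rod libraries and at 9.32, 8.47 and 9.81 CPM in Nrl-/- photoreceptors, higher in the latter (log2 fold change -0.73, SE 0.20, adjusted p = 0.00686). Bmi1, which with Pcgf2 forms the canonical PRC1 complexes that contain CBX proteins, was at 25.1 to 31.3 CPM in rods, against 42.0 to 42.9 CPM in Nrl-/- photoreceptors (log2 fold change -0.54, adjusted p = 0.00318). Pcgf2 and Pcgf6 did not pass (log2 fold change -0.83 and 0.43, adjusted p = 0.0704 and 0.0543), though Pcgf2 passed without rod replicate 1, and Pcgf6 passed without Nrl-/- replicate 1. The 8 genes of this group thus held 2 that were higher in rods, 2 that were higher in Nrl-/- photoreceptors and 4 that did not pass. Over all tested genes 29.5% were higher in rods and 31.4% higher in Nrl-/- photoreceptors.

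DNA methyltransferases split into the de novo enzymes, higher in rods, and the maintenance enzyme, which did not pass. Dnmt3b was at 8.96, 8.30 and 8.68 CPM in the rod libraries and at 3.55, 2.73 and 1.42 CPM in Nrl-/- photoreceptors. The rod libraries were close together and the Nrl-/- libraries were spread, and Dnmt3b RNA was 3.37-fold higher in rods (log2 fold change 1.75, SE 0.30, adjusted p = 0.019); that call was lost without Nrl-/- replicate 3 and with DESeq2. Dnmt3a was at 249, 228 and 252 CPM in the rod libraries and at 184, 134 and 117 CPM in the Nrl-/- libraries, without overlap (log2 fold change 0.75, SE 0.16, adjusted p = 0.00137 against no change). Dnmt3a was the more abundant de novo enzyme, per length 12.2 times Dnmt3b in rods and 24.6 times in Nrl-/- photoreceptors. Dnmt1, which copies methylation after replication, was at 70.6 to 90.4 CPM in rods, against 70.9 to 93.4 CPM in Nrl-/- photoreceptors (adjusted p = 0.742), and Uhrf1, which brings Dnmt1 to replicated DNA, had 0.10 to 0.35 CPM and 2 to 7 reads per library and was not tested. Dnmt3b lies at chr2:153649411-153687730 on the plus strand and, like Dnmt3a, has 1 annotated pseudogene.

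Mbd3, a member of the MBD family and a subunit of the NuRD deacetylase complex, was at 6.28, 6.57 and 7.62 CPM in the rod libraries. In Nrl-/- photoreceptors it was at 17.0, 18.2 and 21.7 CPM. It was 2.78-fold lower in rods, without overlap (log2 fold change -1.48, SE 0.18, adjusted p = 0.0123), a call lost with DESeq2. The gene lies at chr10:80392539-80399531 on the minus strand. Mbd1 was higher in rods (log2 fold change 0.40, adjusted p = 0.0111), a call lost without rod replicate 1 and with the length correction (0.23, adjusted p = 0.115), and Mbd2, at 5.88 to 8.76 CPM, did not pass.

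Hdac1, the deacetylase shared by NuRD and other corepressor complexes, changed in the same direction as Mbd3. It was at 11.7, 11.6 and 14.2 CPM in the rod libraries and at 24.7, 25.1 and 29.3 CPM in Nrl-/- photoreceptors (log2 fold change -1.08, SE 0.15, adjusted p = 8.22e-05 against no change, 0.451 against a log2 fold change of 1). Hdac1 has 1 annotated pseudogene. Hdac2 and Hdac3 did not pass, Hdac2 passed without Nrl-/- replicate 3, and Hdac3 passed with the length correction (log2 fold change 0.30, adjusted p = 0.0423). Hdac3 stood at 51.3 to 63.0 CPM in rods, against 48.7 to 54.9 CPM in Nrl-/- photoreceptors. Smchd1, which acts in silencing of the inactive X chromosome and of gene clusters, was at 41.8, 50.4 and 53.5 CPM in the rod libraries and at 24.6, 23.6 and 20.5 CPM in Nrl-/- photoreceptors, 2.12-fold higher in rods without overlap (log2 fold change 1.09, SE 0.14, adjusted p = 3.69e-05 against no change, 0.391 against a log2 fold change of 1). Atrx and Daxx, which deposit histone H3.3 in heterochromatin, did not pass (log2 fold change 0.28 and -0.24, adjusted p = 0.159 and 0.0764). Atrx passed without Nrl-/- replicate 1 and Daxx with library totals alone as the scaling (adjusted p = 0.0354). The Atrx libraries were uneven in Nrl-/- photoreceptors, at 329, 214 and 206 CPM. Daxx stood at 58.7 to 63.6 CPM in rods, against 69.7 to 76.1 CPM in Nrl-/- photoreceptors. Atrx shares exonic sequence with Gm14853 on the same strand, and reads in that overlap cannot be told apart.

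Per length, the 48 transcripts covered a range from 0.07 to 80.3 RPKM in rods. In rods Rbbp4 (80.3 RPKM), Rnf2 (51.0), Pcgf1 (45.0), Jarid2 (39.6) and Ezh1 (35.7) had the highest means, and Dnmt3b (2.0), Pcgf5, Pcgf3, Cbx2, Pcgf2, Phf19 and Uhrf1 (0.07) the lowest. In Nrl-/- photoreceptors the order began with Rbbp4 (93.5 RPKM), Rbbp7 (50.2) and Rnf2 (47.6), and Jarid2 stood at rank 14 (15.0 RPKM). Of the leading genes in rods, Pcgf1, Jarid2 and Ezh1 differed between the cell types against no change, and Rbbp4 and Rnf2 did not pass. Levels of neighbouring genes in this order were not tested against each other.

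**Figure D3:**
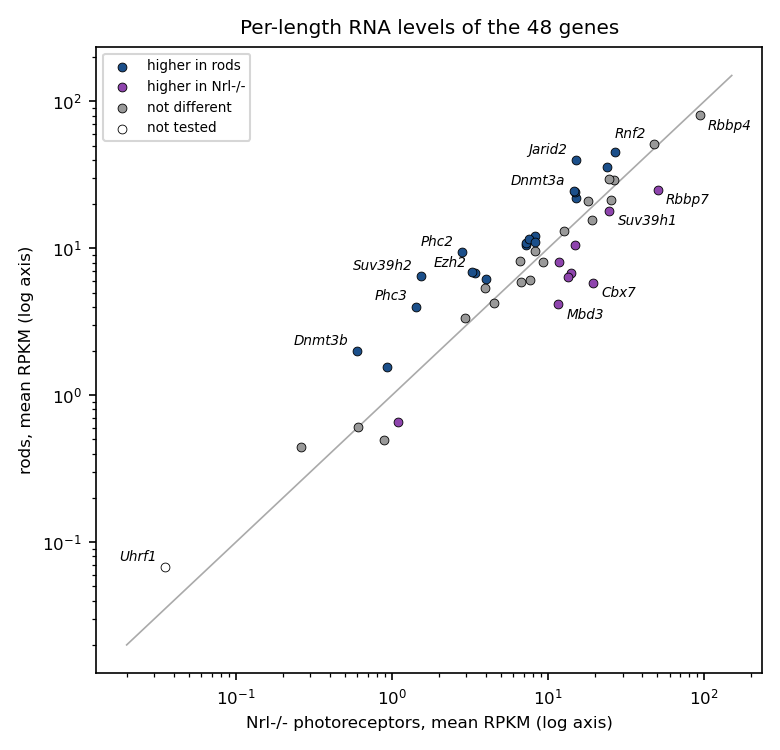
Mean RNA level per length of the 48 genes in Nrl-/- photoreceptors (x axis) and rods (y axis), in RPKM on log scales, 3 libraries each, with the line of equal levels. Blue points were higher in rods and purple points higher in Nrl-/- photoreceptors against no change; Suv39h2 at 6.45 and 1.54 RPKM and Cbx7 at 5.83 and 19.4 RPKM lie farthest from the line on its opposite sides.

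Transcript length moved with the direction of change. Among all tested genes with an annotated length, the median log2 fold change was -0.10, -0.05 and 0.19 in the short, middle and long class when the genes were divided into 3 equal classes by exonic length. Among the 47 genes it was -0.09 for the 11 in the short class (874 to 2272 bases), 0.0034 for the 15 in the middle class and 0.55 for the 21 in the long class (4116 to 11066 bases). Mbd3, Hdac1 and Rbbp7 fall in the short class, and Jarid2, Phc2, Phc3, Suv39h2, Dnmt3a, Dnmt3b and Smchd1 in the long class. When the trend with length was removed from every library, an alternative chosen after seeing the data, Suv39h2 (log2 fold change 2.02), Phc2 (1.69), Dnmt3b (1.71), Cbx7 (-1.69) and Mbd3 (-1.33) kept their calls and Cbx6 (-1.21, adjusted p = 0.0429) gained one. Jarid2 fell to 1.19 (adjusted p = 0.0633) and Phc3 to 1.08 (adjusted p = 0.491), which left 3 genes past a log2 fold change of 1 in rods. Against no change 21 genes were then higher in rods and 9 higher in Nrl-/- photoreceptors. Dnmt3a fell to 0.36 (adjusted p = 0.00822). The part of transcript length in the results was not tested further.

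Partners of the 48 genes were read from 76 further genes of the same pathways, of which 71 were tested. Of these, 9 passed a log2 fold change of 1, 3 higher in rods and 6 higher in Nrl-/- photoreceptors (12.7%, against the background of 20.1%), and against no change 28 were higher in rods and 18 higher in Nrl-/- photoreceptors (64.8%, against 60.9%). Tet3 and Tet1, dioxygenases that oxidise methylated cytosine, changed in opposite directions. Tet3 was at 226, 213 and 235 CPM in the rod libraries and at 56.6, 39.8 and 34.3 CPM in Nrl-/- photoreceptors (log2 fold change 2.37, SE 0.17, adjusted p = 6.28e-06), and Tet1 at 1.21, 0.99 and 1.06 CPM in the rod libraries and at 23.8, 15.0 and 10.7 CPM in Nrl-/- photoreceptors (log2 fold change -3.91, SE 0.33, adjusted p = 4.8e-06). The libraries did not overlap for either gene. E2f6 and Mga, DNA-binding partners of the PRC1 variant with Pcgf6, also went apart: E2f6 stood at 8.15 to 9.46 CPM in rods, against 45.9 to 54.6 CPM in Nrl-/- photoreceptors (log2 fold change -2.46, SE 0.14, adjusted p = 8.18e-07), and Mga at 145 to 161 and 49.7 to 80.6 CPM (log2 fold change 1.34, SE 0.17, adjusted p = 0.0453). The Mga call was lost in 10 of 14 alternatives.

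Of 14 tested genes of the NuRD, Sin3 and CoREST corepressor complexes, 2 were past a log2 fold change of 1 in Nrl-/- photoreceptors and 1 in rods, and of 8 other deacetylases 2 were, both in Nrl-/- photoreceptors, beside 20.1% of all tested genes. Mta3, a NuRD subunit, had 1, 0 and 3 reads in rods and 240, 260 and 256 reads in Nrl-/- photoreceptors, or 0 to 0.17 and 9.47 to 10.1 CPM (adjusted p = 3.14e-07). Mta2, its relative, went the other way at 403 to 473 CPM in rods, against 163 to 209 CPM in Nrl-/- photoreceptors (log2 fold change 1.29, adjusted p = 0.0288). Chd5, a neuronal NuRD remodeller, was at 1.25 to 2.67 CPM in rods, against 10.2 to 13.2 CPM in Nrl-/- photoreceptors (log2 fold change -2.54, adjusted p = 0.000154). Hdac7 was at 0.10 to 0.33 CPM in rods, against 1.3 to 2.19 CPM in Nrl-/- photoreceptors, and Hdac11 at 4.17 to 5.51 and 17.8 to 23.5 CPM (log2 fold change -2.99 and -2.11, adjusted p = 0.00405 and 7.62e-05). Of 12 demethylases of lysines 9 and 27 of histone H3, 7 were higher in rods and 1 was higher in Nrl-/- photoreceptors against no change, beside 29.5% and 31.4% of all tested genes.

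Open chromatin at these genes was read from the 200 bp elements that the authors placed on their peaks. An element was given to a gene when the nearest RefSeq start was that gene's, within 100 kb, which assigned 140 of 53204 elements to 46 of the 48 genes. Of the 48 genes, 41 had a peak at a start (1000 bp before it to 100 bp after) in all 4 peak lists, and Mbd1, Mbd3, Pcgf2 and Phf19 had none in any list. Cbx5, Ehmt2 and Phc1 lacked such a peak only in the double-sorted green cones, the shallowest libraries. The share over all genes was not computed. Of the 135 elements tested between rods and cones (Nrl-/- photoreceptors and double-sorted green cones as a single group), 12 were more open in rods and 2 in cones at an adjusted p under 0.1. That is 10.4% of these elements, against 22.1% of all tested elements. Split by direction, the background was 3.98% for rods and 18.1% for cones. The median log2 ratio of rods over cones was 0.50 at these elements and -0.13 over all elements. Among promoter elements, 64 at these genes had a median of 0.42 and 4 more open in rods with 1 in cones, and the promoters of all genes had a median of 0.24 with 8.71% called in either direction. As an alternative, the processed reads of each library, those left after the authors' filtering, were taken as its size. The median over all elements then moved from -0.13 to 0.34. The share of called elements that were more open in rods moved from 18% to 35.4%. The counts at the genes described here became 18 in rods and 1 in cones.

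Each called element had no overlap between the 2 rod libraries and the 4 cone libraries of the test. The elements were picked by their difference in these same libraries, so the lack of overlap adds no support. Of those, 5 elements that lie outside annotated exons, around Jarid2, Dnmt3a, Smchd1 and Atrx, are shown as examples. They were not picked by a fixed rule, and other called elements outside exons are not shown. Bases are from the plus strand of GRCm38, in lower case, and capitals mark exact matches on either strand to 4 short motifs, TAATCC of Crx-type homeodomains, TGCTGA of MAF factors such as Nrl, AGGTCA of nuclear receptors and TAATTA of other homeodomains.
Jarid2, upstream (chr13:44700443-44700642): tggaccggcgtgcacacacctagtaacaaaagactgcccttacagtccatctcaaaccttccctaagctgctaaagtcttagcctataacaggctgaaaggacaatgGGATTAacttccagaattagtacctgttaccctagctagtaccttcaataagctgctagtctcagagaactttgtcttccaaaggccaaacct
Dnmt3a, intron (chr12:3884979-3885178): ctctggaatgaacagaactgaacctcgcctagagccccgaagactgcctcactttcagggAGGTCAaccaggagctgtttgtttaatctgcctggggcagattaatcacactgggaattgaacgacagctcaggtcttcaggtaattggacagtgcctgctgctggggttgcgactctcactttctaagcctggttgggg
Smchd1, upstream (chr17:71480673-71480872): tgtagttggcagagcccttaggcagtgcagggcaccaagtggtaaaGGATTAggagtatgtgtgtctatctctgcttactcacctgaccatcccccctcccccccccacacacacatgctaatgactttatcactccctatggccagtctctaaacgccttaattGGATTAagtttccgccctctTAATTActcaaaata
Atrx, intron (chrX:105908293-105908492): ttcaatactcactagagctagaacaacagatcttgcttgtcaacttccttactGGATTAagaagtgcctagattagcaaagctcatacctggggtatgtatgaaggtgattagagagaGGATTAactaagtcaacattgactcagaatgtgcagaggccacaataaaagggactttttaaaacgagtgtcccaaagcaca
Jarid2, intron (chr13:44746063-44746262): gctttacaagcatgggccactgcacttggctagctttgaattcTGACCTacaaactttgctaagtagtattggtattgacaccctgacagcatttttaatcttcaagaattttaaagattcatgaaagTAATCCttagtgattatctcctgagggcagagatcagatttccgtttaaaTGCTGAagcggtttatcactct
TAATCC was found in 4 of the 12 elements more open in rods and in 21.1% of all 53204 elements, and AGGTCA in 3 of the 12 and in 14.9% of all elements. TGCTGA was found in 1 of the 12 and in 15.9% of all, and TAATTA in 1 of the 12 and in 4.71% of all. The intronic Jarid2 element, more open in cones, held the first, the second and the nuclear receptor motif. These matches describe the letters only.

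Jarid2 carried the element with the lowest p, at -30232 bp from its start in intergenic sequence. It was at 67.3 and 67.2 CPM in rods, 4.14 and 6.36 CPM in the Nrl-/- libraries, 28.8 and 17.3 CPM in green cones from the single sort and 20.2 and 16.2 CPM in those sorted again. Rods were highest, Nrl-/- photoreceptors lowest and green cones between them (rods over cones log2 fold change 2.70, SE 0.45, adjusted p = 0.00677), and the call held in all 12 alternatives. A different Jarid2 element, in an intron 14891 bp downstream of the start, was at 2.92 and 2.26 CPM in rods, 19.9 and 18.2 CPM in the Nrl-/- libraries and 4.66 and 6.29 CPM in double-sorted green cones. It was the most open in Nrl-/- photoreceptors (log2 fold change -2.31, SE 0.62, adjusted p = 0.0579). Its call was lost without either rod library, without either Nrl-/- library, with DESeq2 and with processed reads as library sizes. The 4 promoter elements of Jarid2 were not called, and the largest of them stood at 149 and 157 CPM in rods, against 146 and 143 CPM in Nrl-/- photoreceptors (rods over cones log2 fold change 0.19, SE 0.22).

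Of the 9 elements of Dnmt3a, 4 were more open in rods, the highest count of the list, beside 3.98% of all tested elements. The one at -6666 bp from an internal start, in an intron, was at 26.9 and 30.7 CPM in rods, 2.07 and 3.18 CPM in the Nrl-/- libraries and 1.55 and 9.88 CPM in double-sorted green cones (log2 fold change 2.95, SE 0.51, adjusted p = 0.00707). The promoter element at -12 bp was at 52.5 and 50.5 CPM in rods, 18.2 and 13.8 CPM in the Nrl-/- libraries and 12.4 and 15.3 CPM in double-sorted green cones (log2 fold change 1.78, SE 0.26, adjusted p = 0.0143). Another promoter element, at -544 bp, was not called (log2 fold change 0.99, adjusted p = 0.593). The remaining called elements lay at -26507 bp, in an intron of Dtnb, and at -19714 bp, with log2 fold changes of 1.63 and 1.54 and adjusted p = 0.0553 and 0.0843. Each of them kept its call in 7 of 12 alternatives. Single-sorted green cones lay between rods and Nrl-/- photoreceptors at all 4 called elements, at 9.58 to 24.6 CPM.

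The PRC2 enzymes both had a more open element in rods. At Ezh1 the promoter was at 52.1 and 54.0 CPM in rods, 21.9 and 17.7 CPM in the Nrl-/- libraries and 12.4 and 8.08 CPM in double-sorted green cones (log2 fold change 1.75, SE 0.32, adjusted p = 0.0347). At Ezh2 an intronic element 674 bp downstream of the start was at 24.4 and 33.3 CPM in rods, 7.45 and 7.72 CPM in the Nrl-/- libraries and 3.11 and 8.98 CPM in double-sorted green cones (log2 fold change 2.05, SE 0.37, adjusted p = 0.0188). The Ezh1 promoter kept its call in 9 of 12 alternatives and the Ezh2 element in 10. Both genes also had more RNA in rods. A weak element at -6099 bp from the start of Suz12 was called as well (log2 fold change 2.44, SE 0.69, adjusted p = 0.0656). It was at 7.50 and 8.28 CPM in rods, against 0 to 1.82 CPM in the 4 cone libraries. That call was kept in 8 of 12 alternatives.

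Promoters of Pcgf6 and Pcgf3 were more open in rods. Pcgf6 stood at 63.9 and 52.9 CPM in rods, 19.9 and 18.2 CPM in the Nrl-/- libraries and 10.9 and 16.2 CPM in double-sorted green cones (log2 fold change 1.81, SE 0.27, adjusted p = 0.0144). Pcgf3 stood at 91.6 and 94.9 CPM in rods, 33.5 and 40.9 CPM in the Nrl-/- libraries and 24.1 and 41.3 CPM in double-sorted green cones (log2 fold change 1.41, SE 0.23, adjusted p = 0.0735). For Pcgf3 this is opposite to its RNA, which was higher in Nrl-/- photoreceptors. The Pcgf6 promoter kept its call in 10 of 12 alternatives and the Pcgf3 promoter in 7. The element at -5429 bp from the start of Smchd1 was at 58.3 and 65.7 CPM in rods, against 17.0 to 26.9 CPM in the 4 cone libraries (log2 fold change 1.46, SE 0.24, adjusted p = 0.0656), and an intronic element of Atrx, on the X chromosome, was at 8.33 and 10.5 CPM in rods, against 0.83 to 3.11 CPM in cones (log2 fold change 2.67, SE 0.61, adjusted p = 0.0279). The Smchd1 element kept its call in 7 of 12 alternatives and the Atrx element in 8. The study's methods name male mice unless noted otherwise, and its sample sheet lists female mice among the double sorts.

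The remaining element more open in cones lay at a downstream start of Cbx5, with no read in either rod library, 4.97 and 3.63 CPM in Nrl-/- photoreceptors, 4.15 and 5.02 CPM in green cones sorted a single time, and 2 reads in each double-sorted library. Against a limit of 3 reads in each rod library it was at least 7.23-fold more open in Nrl-/- photoreceptors than in rods (rods over cones adjusted p = 0.025), and the call was lost without either rod library. The larger element of Cbx5, 371 bp downstream of its upstream start, was at 83.7 and 80.2 CPM in rods, against 74.1 and 55.2 CPM in Nrl-/- photoreceptors and was not called.

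**Figure D4:**
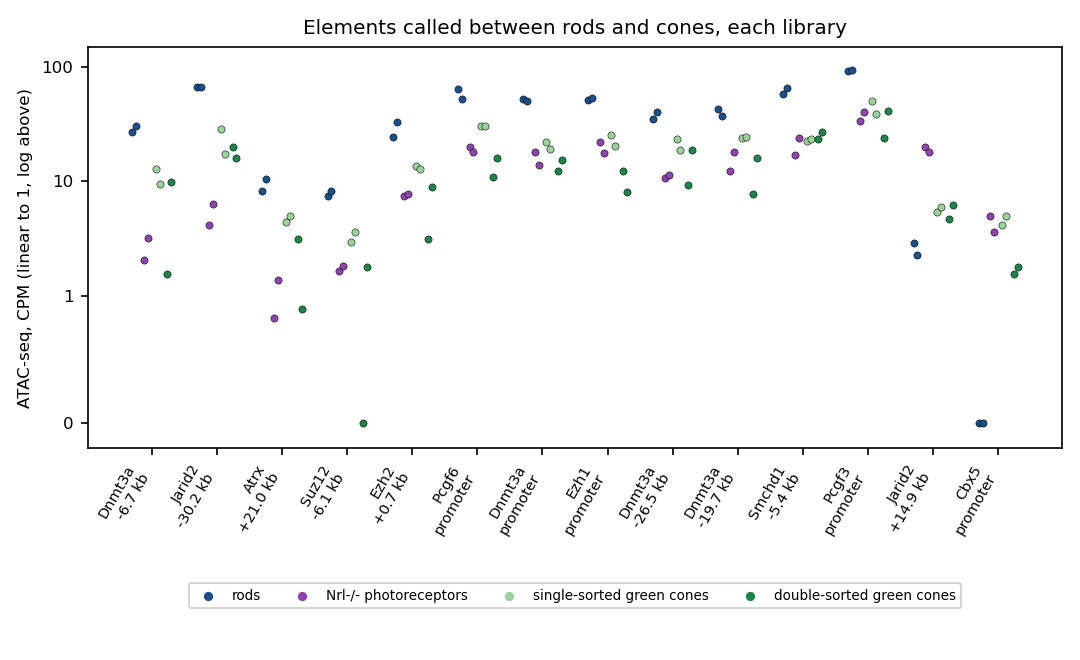
ATAC-seq signal of the 14 called elements in each of the 8 libraries (y axis, CPM, linear up to 1 and logarithmic above), ordered by the log2 fold change of rods over cones and named by gene and position. The 12 elements on the left have both rod libraries above all others; the intronic Jarid2 element and the Cbx5 promoter have them below.

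The number of called elements rested on the rod libraries. Without rod replicate 1 there were 3 elements more open in rods and without rod replicate 2 there were 4, and when the single sorts stood in for the double sorts there were 6. Without either rod library no element was more open in cones. The upstream Jarid2 element and the intronic Dnmt3a element kept their call in all 12 alternatives, and the called Dnmt3a promoter element lost it without rod replicate 1 alone.

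The cone types were also compared with rods separately, with shared rod libraries. Against Nrl-/- photoreceptors, 16 of 135 elements were more open in rods and 4 in Nrl-/- photoreceptors, which is 14.8% against a background of 27.4% (6.38% and 21% by direction). Against double-sorted green cones, 16 of 131 were more open in rods and 2 in green cones, 13.7% against a background of 25.1% (6.43% and 18.7%). Phc2 had an intronic element, at -6107 bp from an internal start, with 23.3 and 29.0 CPM in rods, 9.93 and 9.53 CPM in the Nrl-/- libraries and 20.2 and 24.3 CPM in double-sorted green cones. It was called against Nrl-/- photoreceptors (log2 fold change 1.42, adjusted p = 0.0654) and stood at 0.22 against green cones (adjusted p = 1). Another Phc2 element, at -16795 bp from that start, stood at 30.4 and 28.8 CPM in rods, 17.0 and 14.3 CPM in the Nrl-/- libraries and 1.55 and 6.29 CPM in double-sorted green cones, and was called against green cones (log2 fold change 2.93, adjusted p = 0.0128). Tested directly between double-sorted green cones and Nrl-/- photoreceptors, 0 of 111 elements were called with edgeR or with DESeq2, against a background of 0.0398% (0.0374% for green cones and 0.00234% for Nrl-/- photoreceptors), and 5 had an unadjusted p under 0.05.

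Promoter accessibility was set beside RNA gene by gene. For 43 genes with a promoter element and RNA that passed the filter, the log2 ratio of rods over Nrl-/- photoreceptors in summed promoter CPM had the sign of the RNA change in 24 genes. It was above 0 in 35 genes on the TMM scale. With processed reads as library sizes the median over all elements in this comparison moved from -0.07 to 0.51. Across these genes Pearson's r was -0.18 and Spearman's rho -0.10, a description over points that share the same libraries. Suv39h2, with the largest RNA difference, had a promoter at 56.4 and 53.7 CPM in rods, against 42.2 and 44.0 CPM in Nrl-/- photoreceptors (rods over cones log2 fold change 0.43, SE 0.21, adjusted p = 1). The promoters of Phc2, Phc3 and Dnmt3b were not called either, with log2 fold changes of -0.07 and 0.41 at the 2 elements of Phc2, 0.16 at Phc3, and -0.85 and 0.21 at the 2 elements of Dnmt3b.

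Cbx7 had opposite signs in the 2 assays. Its promoter element, at a start inside the gene, was at 54.4 and 57.4 CPM in rods, 20.3 and 20 CPM in the Nrl-/- libraries and 26.4 and 26.1 CPM in double-sorted green cones. It was more open in rods than in Nrl-/- photoreceptors (log2 fold change 1.46, adjusted p = 0.00818), while Cbx7 RNA was 3.33-fold lower in rods. The comparison with both cone types did not pass (log2 fold change 1.3, adjusted p = 0.152). An element at -25876 bp from that start, still inside the gene, was more open in Nrl-/- photoreceptors, at 72.9 and 70.6 CPM against 30.4 and 27.9 CPM in rods (log2 fold change -1.31, adjusted p = 0.0252).

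**Figure D5:**
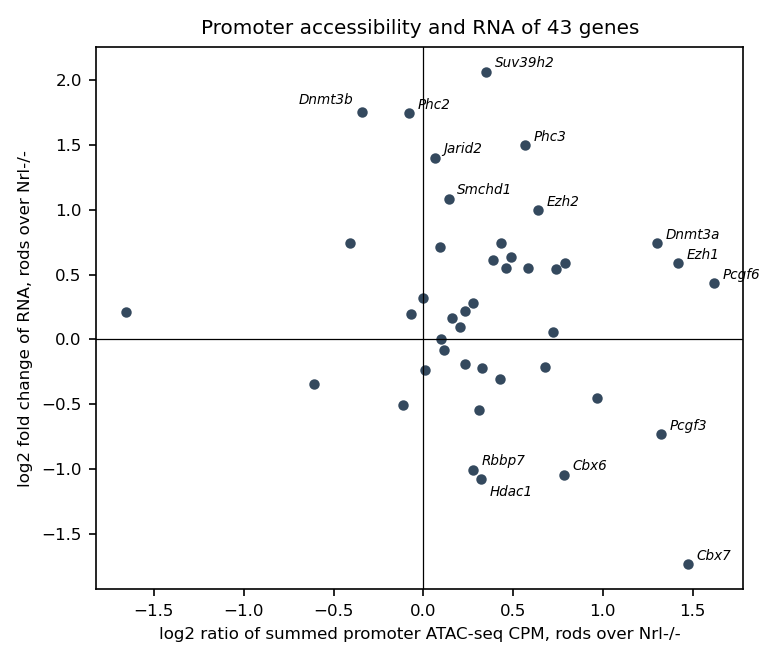
Log2 ratio of summed promoter ATAC-seq CPM (x axis) and log2 fold change of RNA (y axis), both rods over Nrl-/- photoreceptors, for 43 genes. Suv39h2, Phc2, Dnmt3b and Jarid2 lie high near x = 0, and Cbx7 and Pcgf3 lie at the lower right, with a more open promoter and less RNA in rods.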

How the data were processed

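ATAC-seq covered 8 libraries and RNA-seq 6. Per the study's methods, with versions from the submitters' processing notes, the authors aligned reads to GRCm38 with Bowtie2 2.2.3 or STAR 2.4.2a, removed ATAC-seq duplicates with Picard 1.121 and filtered with SAMtools 1.3, called peaks with MACS2 2.1.0 on pooled replicates and counted genes with HTSeq 0.6.1p1. HOMER 4.8 and bedtools 2.24.0 were also used. The deposited tables hold raw counts per gene and per element. The deposited peak lists give a score, a fold ratio over background, −log10 p (not used), −log10 q and the summit's position.

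Reads without a gene, 41.3% to 49.2% of each RNA library, were left out. Genes and elements kept by filterByExpr were fitted with edgeR 4.0.16 in R 4.3.3 (TMM, quasi-likelihood), tested against a log2 fold change of 1 (glmTreat) or against no change, and adjusted by Benjamini-Hochberg over all tested features. SE was the absolute log2 fold change divided by the square root of the F statistic of the test against no change. ATAC-seq counts hold both mates of a fragment. DESeq2 1.42.0, other scalings and filters, a length correction and leaving out each library were the alternatives (the length correction was added after seeing the data). Replicates are called biological in the series' design. The functions were tested on simulated counts. RefSeq transcripts of GRCm38 gave starts and lengths.

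The members and lists were chosen with earlier results of these data known. Named genes are every member past a log2 fold change of 1, the 14 next largest past no change without overlap, the smallest change per role, the untested gene, and up to 2 per related list; others were named after their values were seen. 1 gene of the marker lists is not reported here.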

Additional observations from a re-analysis of the deposited data

How the results depend on the processing

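In RNA-seq, Suv39h2, Phc2 and Cbx7 kept their calls past a log2 fold change of 1 in all 14 alternatives. DESeq2 called 3 genes in rods and 1 in Nrl-/- photoreceptors, and the length correction 3 in rods. Leaving out 1 library gave 3 to 5 genes in rods (3 without Nrl-/- replicate 3) and 2 to 2 in Nrl-/- photoreceptors. The replicate block gave 5 and 2 genes past a log2 fold change of 1 and 19 and 9 against no change in RNA-seq, and 16 and 4 elements for rods against Nrl-/- photoreceptors, the same counts as without it. Same-numbered libraries shared little of their deviations (correlations 0.19, 0.090 and 0.0011 in RNA-seq and 0.032 in ATAC-seq), and rod replicate 2 correlated best with Nrl-/- replicate 3, so the numbers do not pair the samples. Small differences turned sign. Cbx2 turned to -0.018 with RLE size factors, -0.039 with library totals, -0.0039 with a mean CPM of at least 1, -0.021 with DESeq2 and -0.089 with the block, and ranged from -0.35 to 0.36 without single libraries. Ring1 turned to 0.059 with the length correction and ranged from -0.20 to 0.0016 without single libraries. Dnmt1 turned to -0.018 with library totals and -0.16 with the length correction, and ranged from -0.021 to 0.20. Cbx5 turned to -0.15 and Atrx to -0.11 with the length correction, and Cbx8 ranged from -0.49 to 0.019 over its 14 alternatives. The cause was not tested.

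In ATAC-seq the counts moved with the setting. For rods against cones (12 more open in rods, 2 in cones), DESeq2 gave 4 and 1, and a test against no change 43 and 5. Single-sorted green cones gave 6 and 4. In cones alone, processed reads as library sizes gave 1 and the 50 kb window 6. Leaving out 1 library gave 3 to 14 in rods (3 and 4 without rod replicates 1 and 2) and 0 to 2 in cones. For rods against Nrl-/- photoreceptors (16 and 4), DESeq2 gave 8 and 2, and a test against no change 64 and 13. In Nrl-/- photoreceptors processed reads gave 2 and the 50 kb window 13. Leaving out 1 library gave 14 to 15 and 2 to 4 (2 without Nrl-/- replicate 2). For rods against double-sorted green cones (16 and 2), DESeq2 gave 0 and 0, and a test against no change 45 and 5. Single sorts gave 5 and 4, the 50 kb window 30 and 7, and processed reads 1 in green cones. Leaving out 1 library gave 3 to 31 in rods (4 and 3 without rod replicates 1 and 2, and 31 without green cone replicate 4) and 0 to 3 in green cones. For green cones against Nrl-/- photoreceptors (none called), leaving out 1 library gave 0 to 2 in Nrl-/- photoreceptors, and a test against no change gave 1 and single sorts 3 in green cones. Promoter elements near 0 turned sign. With processed reads, Jarid2 elements turned to 0.14 and 0.46 and a Phc2 element to 0.37. The second Jarid2 element turned to 0.045 without a filter and 0.0068 with DESeq2. Without single libraries the Jarid2 elements ranged from -0.49 to 0.010 and from -0.096 to 0.12, Dnmt3b from -0.0055 to 0.65, Phc3 from -0.062 to 0.43 and Phc2 to 0.051. The numbers of genes with a promoter peak, 41 in double-sorted green cones and 44 in each other list, were the same with a 100 bp overlap and with a −log10 q of at least 10. Double-sorted green cones were the shallowest libraries, so their weak elements rest on few reads.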
